A study of Mus musculus with 127 samples.

Results

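The genes encoding proteasome subunits were followed through single cells of the mouse granulocyte lineage. Members were all genes in the expression table whose symbol begins with Psma, Psmb, Psmc, Psmd or Psme followed by a digit, which gave 45 of 23946 genes. They comprised 14 genes of the 20S core (Psma1 to Psma7 for the alpha rings, Psmb1 to Psmb7 for the beta rings) and 17 of the 19S regulatory particle (the 6 ATPases Psmc1 to Psmc6 and 11 Psmd genes without ATPase activity). A further 5 genes belong to the immunoproteasome: the catalytic subunits Psmb8, Psmb9 and Psmb10 and the activator subunits Psme1 and Psme2. The rest were the nuclear activator Psme3, the activator Psme4 (PA200), the near copy Psme2b of Psme2, and Psmd5, Psmd9 and Psmd10, chaperones that help to assemble the regulatory particle. The rule also matched the testis subunit Psma8, the thymus subunit Psmb11 and Psmc3ip, which is a factor of meiotic recombination and not a subunit.

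The proteasome degrades proteins marked with ubiquitin: the regulatory particle binds, unfolds and feeds them into the barrel of the core, where Psmb5, Psmb6 and Psmb7 cut the chain. In cells of the blood lineage and after interferon, Psmb8, Psmb9 and Psmb10 can take the places of Psmb5, Psmb6 and Psmb7, which alters the peptides made for MHC class I molecules. Psme1 and Psme2 form the 11S ring that caps the core in place of the regulatory particle.

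The cells came from bone marrow of wild-type C57BL/6 mice, bead-enriched for cells bearing CD117, the Kit receptor, and sorted from a population that the cell type labels call GMP-P. There were 40 cells of a CD11b+ gate, 46 of a Ly6g high gate and 41 of a Ly6g low gate, and the cell type labels give both Ly6g gates as CD11b+ too. Cells were captured singly on the Fluidigm C1. Each sample was 1 cell and no animal was named, so each gate was 1 sample, no difference below has a replicate check, and gate and capture plate cannot be told apart. SDs describe the spread over cells. The authors' deposited class names, made from these cells (how is not stated in the labels or files), placed 72 cells in Myelo-2, 16 in Myelo-4, 9 in Myelo-3, 7 in HSCP-2, 6 in Gran-2, 5 each in Mono and Myelo-1, and 4 in Gran-1, with 1 cell each in Eryth, MDP and Multi-Lin. Differences between classes are therefore descriptions.

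Cells differed widely in the number of genes detected, meaning listed at 1 TPM, a length-scaled share of a cell's transcripts, or more. The median was 2464.5 genes (821 to 5173) in CD11b+, 1695 (966 to 4679) in Ly6g high and 2521 (1159 to 5058) in Ly6g low cells. A list of 34 granule genes took a median of 28.6%, 60.2% and 55.3% of the TPM in those gates, and from 0.505% in HSCP-2 to 61.1% in Myelo-3 over the classes with several cells, which lowers the share left for every other gene. Itgam, which encodes CD11b, was listed in 27 of 40 cells in CD11b+, 41 of 46 in Ly6g high and 37 of 41 in Ly6g low, but in 0 of 7 HSCP-2 cells. Ly6g transcripts were listed in 8 CD11b+, 36 Ly6g high and 28 Ly6g low cells. HSCP-2 cells held transcripts of the progenitor genes Kit (5 of 7 cells) and Cd34 (4 of 7), against 12 and 1 of 72 Myelo-2 cells. The monocyte genes Csf1r and Irf8 were detected in 5 of 5 Mono cells, and both in 0 of 72 Myelo-2 cells. Of the 10 listed monocyte genes, 9 were detected in Mono (all but Lgals3) and 5 in Myelo-2, and the list summed to a mean of 8282 TPM in Mono, 11207 in Gran-1 and 1819 in Myelo-2.

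Start regions are shown for the members at the centre of the exchange between standard and immune catalytic subunits, Psmb5 and Psmb6 against Psmb8 and Psmb9, and for the activator subunit Psme1. The sequences are RefSeq windows of build GRCm38.p6, from 250 bases before to 50 after the start of the gene, 5′ to 3′ on the gene's strand. RefSeq windows were matched for 38 of the 45 members, in 41 windows. No window was matched for Psma8, Psmb1, Psmb2, Psmb7, Psmc3, Psmd3 and Psmd7. Capitals mark letters that match 1 of 3 motifs searched on both strands.
Psmb5 (chr14:54617946-54618245, minus strand): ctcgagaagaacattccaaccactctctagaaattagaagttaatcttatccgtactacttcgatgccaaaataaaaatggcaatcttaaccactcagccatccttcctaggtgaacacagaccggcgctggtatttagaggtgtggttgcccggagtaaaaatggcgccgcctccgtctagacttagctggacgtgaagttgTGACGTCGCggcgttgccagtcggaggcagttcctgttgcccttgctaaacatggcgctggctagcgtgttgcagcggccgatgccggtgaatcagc
Psmb6 (chr11:70525107-70525406, plus strand): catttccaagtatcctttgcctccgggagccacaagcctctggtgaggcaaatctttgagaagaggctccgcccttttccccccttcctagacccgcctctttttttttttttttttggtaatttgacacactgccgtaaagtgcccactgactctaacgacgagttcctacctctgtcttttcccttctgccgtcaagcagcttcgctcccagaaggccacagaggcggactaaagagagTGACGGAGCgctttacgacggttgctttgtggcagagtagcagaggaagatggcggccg
Psmb8 (chr17:34197945-34198244, plus strand): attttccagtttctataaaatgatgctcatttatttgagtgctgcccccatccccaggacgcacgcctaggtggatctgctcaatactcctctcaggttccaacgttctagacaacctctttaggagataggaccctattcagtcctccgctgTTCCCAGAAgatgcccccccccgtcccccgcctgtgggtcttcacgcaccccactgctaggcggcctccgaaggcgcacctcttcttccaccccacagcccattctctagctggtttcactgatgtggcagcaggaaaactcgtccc
Psmb9 (chr17:34187281-34187580, minus strand): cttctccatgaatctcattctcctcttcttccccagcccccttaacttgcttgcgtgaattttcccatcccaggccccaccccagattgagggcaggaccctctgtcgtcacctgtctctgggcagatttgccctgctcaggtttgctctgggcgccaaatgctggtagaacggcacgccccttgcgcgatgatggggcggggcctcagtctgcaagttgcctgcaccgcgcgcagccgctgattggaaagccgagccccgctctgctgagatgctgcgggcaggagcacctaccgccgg
Psme1 (chr14:55578244-55578543, plus strand): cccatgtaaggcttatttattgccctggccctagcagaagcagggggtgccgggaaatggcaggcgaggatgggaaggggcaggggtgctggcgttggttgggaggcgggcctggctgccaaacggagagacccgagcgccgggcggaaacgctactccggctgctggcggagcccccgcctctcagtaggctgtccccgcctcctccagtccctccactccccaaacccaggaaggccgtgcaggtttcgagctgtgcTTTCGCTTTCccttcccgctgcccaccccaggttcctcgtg

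The capitals in Psmb5 (bases 204 to 212) and Psmb6 (bases 242 to 250) match TGACNNNGC, the core of the antioxidant response element bound by factors such as Nfe2l2 and Nfe2l1. That motif stood in 6 of 41 member windows (14.6%: those of Psmb5, Psmb6, Psmc6, Psmd9, Psmd12 and Psme4) and in 12.4% of all 32851 windows. The capitals in Psmb8 (bases 154 to 162) match TTCNNNGAA, the gamma-activated site of STAT factors, found in 2 of 41 member windows (4.88%: Psmb8 and Psmd2) and 8.30% of all. The capitals in Psme1 (bases 260 to 269, on the other strand) match GAAA, any 2 bases and GAAA, the interferon-stimulated element, found in 4 of 41 member windows (9.76%: Psmb3, Psmd4, Psmd9 and Psme1) and 3.44% of all. The Psmb9 window held none of these letters and shared 275 bases with that of Tap1, the peptide transporter gene on the opposite strand. A match is a run of letters, not a site shown to be used.

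All 45 members were detected in at least 1 cell, but few in most cells. The structural beta subunit Psmb3 was detected in 101 of 127 cells, the alpha subunits Psma2 and Psma7 in 94 and 93, and Psma3, Psmb1 and Psme1 in 90, 90 and 89. The other end held Psmb10 (29 cells), Psme4 (24), Psmd9 (21), Psmc3ip (20) and Psmd3 (14), while Psma8 was detected in 2 cells and Psmb11 in 1. A cell held a median of 21.5 of the 45 members in the CD11b+ gate (4 to 41), 14 in the Ly6g high gate (3 to 39) and 21 in the Ly6g low gate (8 to 42). This number ran with the genes detected per cell: Spearman's rho across the 127 cells was 0.90 for the core and 0.93 for the regulatory particle, as a description over cells that share libraries. By class the median was 23 in HSCP-2, 39 in Mono, 31 in Gran-1, 37.5 in Gran-2, 33 in Myelo-1, 8 in Myelo-3, 10 in Myelo-4 and 19 in Myelo-2.

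**Figure D1:**
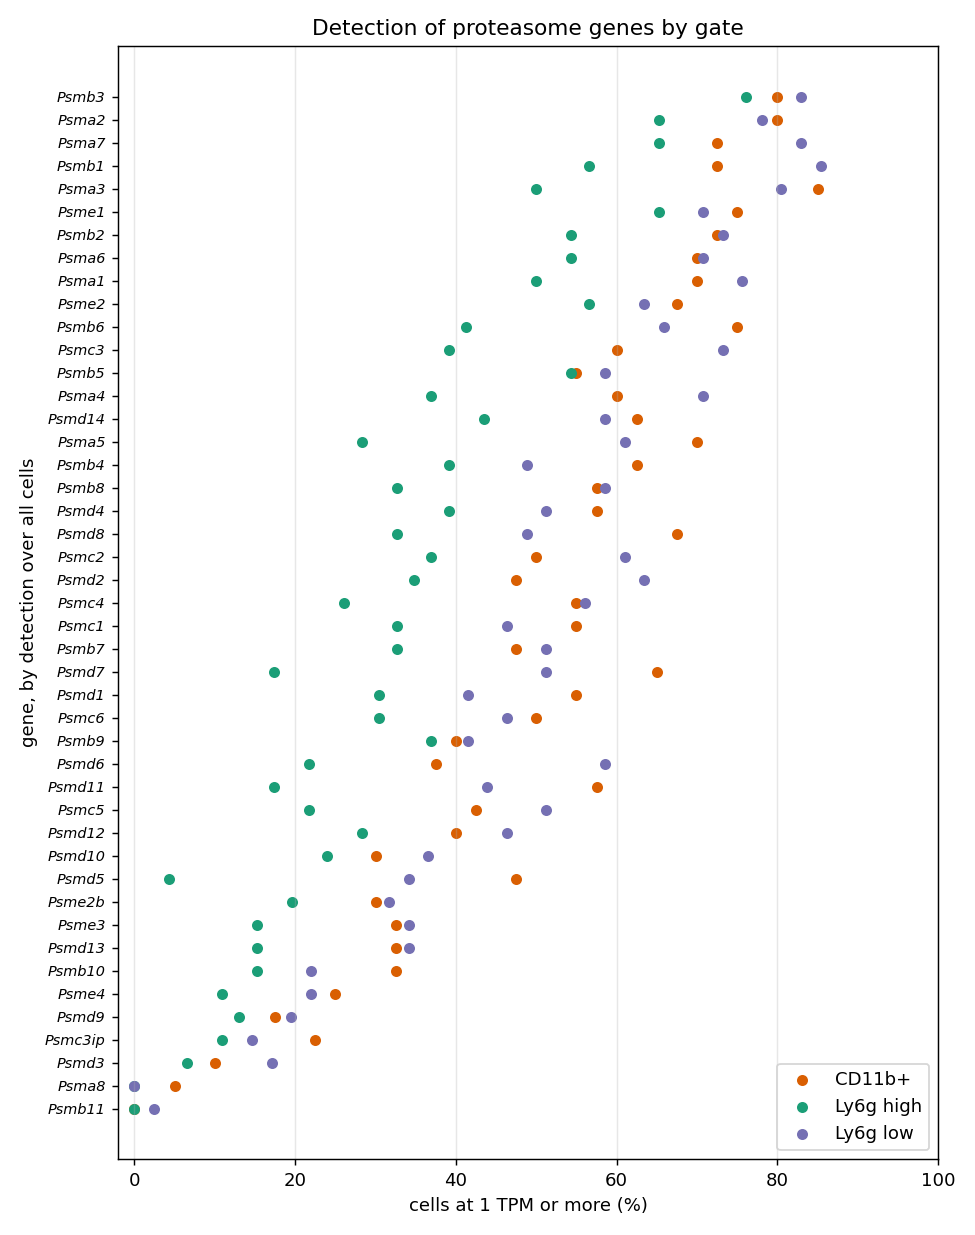
Share of cells (x axis, %) in which each of the 45 genes (rows) stood at 1 TPM or more, in CD11b+ (n = 40), Ly6g high (n = 46) and Ly6g low cells (n = 41). The green Ly6g high points lie left of both others for 43 of 45 genes, in the gate with the lowest median number of genes detected (1695).

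Summed over the 14 genes of the core, transcripts made up 4287 ± 2971 TPM in CD11b+ cells (SD, n = 40), 2630 ± 1883 in Ly6g high cells (n = 46) and 3003 ± 1591 in Ly6g low cells (n = 41). The lowest, median and highest cells stood at 321, 3730 and 12498 TPM for CD11b+, 102, 2302 and 9488 for Ly6g high, and 693, 2614 and 7355 for Ly6g low. The gates overlapped over most of their range, and the log2 ratios of the means were 0.51 for CD11b+ over Ly6g low, 0.70 for CD11b+ over Ly6g high and -0.19 for Ly6g high over Ly6g low (all ratios are of mean TPM with 1 TPM added). The 17 genes of the regulatory particle summed to 1858 ± 1350 TPM in CD11b+, 965 ± 1026 in Ly6g high and 1474 ± 1073 in Ly6g low cells. Their log2 ratios in the same order of pairs were 0.33, 0.94 and -0.61, so the Ly6g high gate was the low one. It also held cells with nearly no such transcripts, since its lowest cell stood at 0 TPM, as did the lowest CD11b+ cell, while the lowest Ly6g low cell had 183 TPM.

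The 5 immunoproteasome genes summed to 1412 ± 3140 TPM in CD11b+, 651 ± 1065 in Ly6g high and 496 ± 438 in Ly6g low cells. The medians of 840, 306 and 350 TPM put the CD11b+ gate above both others and the Ly6g gates close to each other. A single CD11b+ cell, cell 21, gave 35.7% of its gate's sum (20131 TPM), nearly all of it Psme2 (19552 TPM), and the gate mean was 932 TPM without it. With that cell the log2 ratio was 1.51 for CD11b+ over Ly6g low and 1.12 over Ly6g high, and without it 0.91 and 0.52. Ly6g high over Ly6g low gave 0.39.

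**Figure D2:**
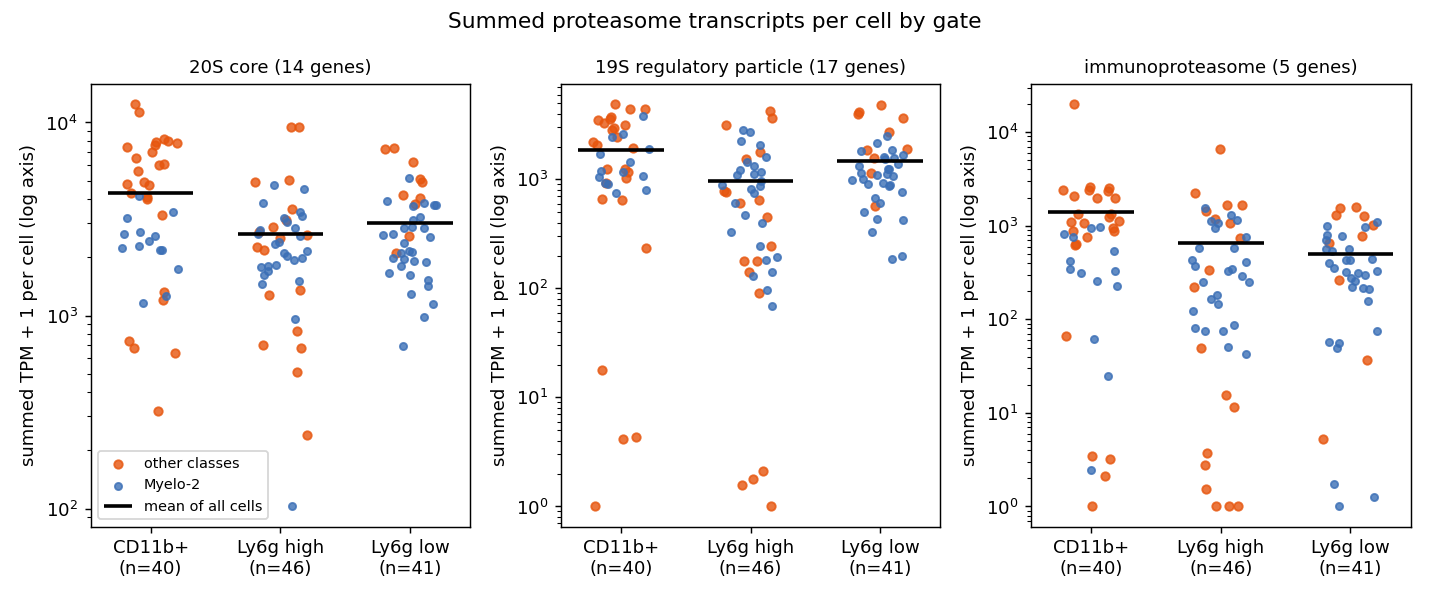
Summed TPM + 1 per cell (log axis) of the core, the regulatory particle and the immunoproteasome genes in the CD11b+, Ly6g high and Ly6g low gates. Each point is 1 cell, blue for Myelo-2 and orange for other classes, and black lines are means. The means of all cells are highest in CD11b+ in each panel (4287, 1858 and 1412 TPM), and the points of the gates overlap.

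Among Myelo-2 cells alone, the class with the most cells in each gate, the sums of the core nearly coincided: 2447 ± 804 TPM in CD11b+ (n = 14), 2393 ± 1023 in Ly6g high (n = 27) and 2435 ± 1019 in Ly6g low cells (n = 31). The immunoproteasome sums were 428 ± 329, 471 ± 437 and 383 ± 306 TPM in that order, and CD11b+ over Ly6g high turned to -0.14. A difference in the regulatory particle was left, with 1557 ± 872 TPM in CD11b+, 962 ± 789 in Ly6g high and 1099 ± 565 in Ly6g low Myelo-2 cells. Their medians of 1174, 864 and 1080 TPM lay closer together than the means. Among its genes, the scaffold Psmd1 averaged 111 TPM in CD11b+, 24.8 in Ly6g high and 26 in Ly6g low Myelo-2 cells, and the ATPase Psmc6 179, 64.3 and 71.5 TPM. Without the highest cell of each gate the means were 72.9, 14.5 and 17.8 TPM for Psmd1 and 109.8, 37.5 and 43.2 TPM for Psmc6. Sums rescaled to the TPM outside the granule genes gave log2 ratios of 0.03 for the core in CD11b+ over Ly6g low and the same value in CD11b+ over Ly6g high. The immunoproteasome ratios were 0.83 and 0.42 after that rescaling, with cell 21 included. The part of the classes and of the granule share in the gate differences was not tested beyond these values.

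Single members were then compared between gates. A gene counted as measured where it was detected in 25% of the cells of either gate, and as different at a 2-fold ratio of means. In CD11b+ over Ly6g low, 8 of 40 measured members were at least 2-fold higher, when 30.3% of all measured genes were, and 1 was lower, against 7.83% of all. In CD11b+ over Ly6g high, 18 of 40 were higher (44.5% of all genes) and 1 lower (6.93% of all). In Ly6g high over Ly6g low, 0 of 38 were higher (7.96% of all) and 10 lower (23.7% of all). In no pair was the share of members far above that of all genes. The median log2 ratio of members was 0.46, 0.84 and -0.36, close to the 0.48, 0.83 and -0.29 of all measured genes.

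Within Ly6g high over Ly6g low the complexes differed in their medians. The regulatory particle had 6 of 16 measured genes at least 2-fold lower and a median of -0.79, the core 2 of 14 and -0.09, and the immunoproteasome 0 of 4 and 0.43. Over all measured genes, 23.7% were at least 2-fold lower and the median was -0.29. The counts of the core and the immunoproteasome were below that share. Of the 6 ATPase genes, 3 were at least 2-fold lower (23.7% of all genes), and their median was -1.01. All 6 lay below 0, for which no share over all genes was taken. Among Myelo-2 cells, 0 of the 6 ATPases were at least 2-fold lower, 1 was higher and their median was -0.59, while over all members 3 of 36 were higher (13.1% of all genes) and 4 lower (19.8%).

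The member with the lowest ratio in that pair was Psma5, the alpha 5 subunit. Its mean was 36.9 TPM in Ly6g high cells (lowest and median 0, highest 591) against 206 TPM in Ly6g low cells (lowest 0, median 46.5, highest 1549), a log2 ratio of -2.45. In Ly6g high 28.3% of the cells listed it and in Ly6g low 61%, and the levels overlapped. The difference was also present in Myelo-2 cells, at 36.7 TPM in Ly6g high against 172 TPM in Ly6g low, and CD11b+ Myelo-2 cells stood at 159 TPM. Psmd7, a scaffold of the regulatory particle lid, averaged 10.7 TPM in Ly6g high (338.7 in the highest cell) against 52.6 in Ly6g low cells. The share of cells listing it was 17.4% in Ly6g high against 51.2% in Ly6g low. Psmd5 (13.2 and 61.5 TPM), the ATPases Psmc4 (48.7 and 128 TPM) and Psmc5 (34.6 and 91.2 TPM) followed. The Psmd5 means rested on few cells, with 3.77 and 24.7 TPM left without the highest cell of each gate. At the other end stood the immune subunit Psmb9 with 99.5 TPM in Ly6g high and 56.5 in Ly6g low, then Psmb5 (209 and 132), Psme2 (208 and 144), Psmb4 (122 and 85.9) and Psmd10 (67.8 and 50.1), with log2 ratios of 0.80 to 0.43, none at 2-fold. Without the highest cell of each gate Psmb4 stood at 81 TPM in Ly6g high and 68.8 in Ly6g low, and Psmc4 at 29.4 and 91.2 TPM. Leaving out only the highest Ly6g high cell put Psmb4 below the Ly6g low mean. Leaving out only the highest Ly6g low cell took Psmc4 under 2-fold.

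The CD11b+ gate stood above both others for another set of members. Psme2, the 11S beta subunit, had the highest ratio over Ly6g low, at 725 TPM in CD11b+ against 144 in Ly6g low (log2 ratio 2.33), but 67.4% of the CD11b+ sum came from cell 21, and 243 TPM were left without it. Next came Psmd7 (136 and 52.6 TPM), Psma3 (391 and 160), the large scaffold subunit Psmd1 (78.8 and 32.1) and the ubiquitin receptor Psmd4 (107 and 44.8). Psma3, the alpha 7 subunit, was listed in 85% of the cells in CD11b+, 50% in Ly6g high and 80.5% in Ly6g low, where its medians were 206, 1.67 and 36.9 TPM. The lowest ratios belonged to Psme2b (4.16 in CD11b+ and 12.7 in Ly6g low), Psmd10 (25.1 and 50.1), Psmb7 (84.3 and 126), Psmc2 (105 and 135) and the deubiquitinase Psmd14 (176 and 222). Psme2b is uncertain, since reads of Psme2 and its copy may have been split between them, and its Ly6g low mean was 2.96 TPM without 1 cell.

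Over Ly6g high, CD11b+ was highest for Psmd7 (136 against 10.7 TPM, log2 ratio 3.54), Psma5 (312 against 36.9, 3.05), Psmd5 (74.6 against 13.2), the scaffold Psmd2 (121 against 31) and Psma3 (391 against 103). It was lowest for Psmd10 (25.1 against 67.8), the beta 7 subunit Psmb4 (79.8 against 122), Psmd14 (176 against 229.9), Psmb5 (180 against 209, or 116 without 1 CD11b+ cell) and Psme4 (9.86 against 11.4), of which Psmd10 passed 2-fold. Psme4 stood at 3.33 TPM in Ly6g high without 1 cell, which turns its direction, and Psmd7 at 3.45 and Psma5 at 24.6 TPM, which widens theirs. Psmb4 stood at 81 TPM in Ly6g high without 1 cell. Of the regulatory particle, 9 of 16 measured genes were at least 2-fold higher (44.5% of all genes) and 0 lower (6.93% of all), and among Myelo-2 cells 7 of 15 (23.2% of all) and 0 (19.8% of all). In Myelo-2 cells, 11 of 35 members were higher in CD11b+ than in Ly6g high (23.2% of all genes) and 1 lower (19.8%). Against Ly6g low, the Myelo-2 counts were 7 of 38 higher (17% of all genes) and 3 lower (23.4%).

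**Figure D3:**
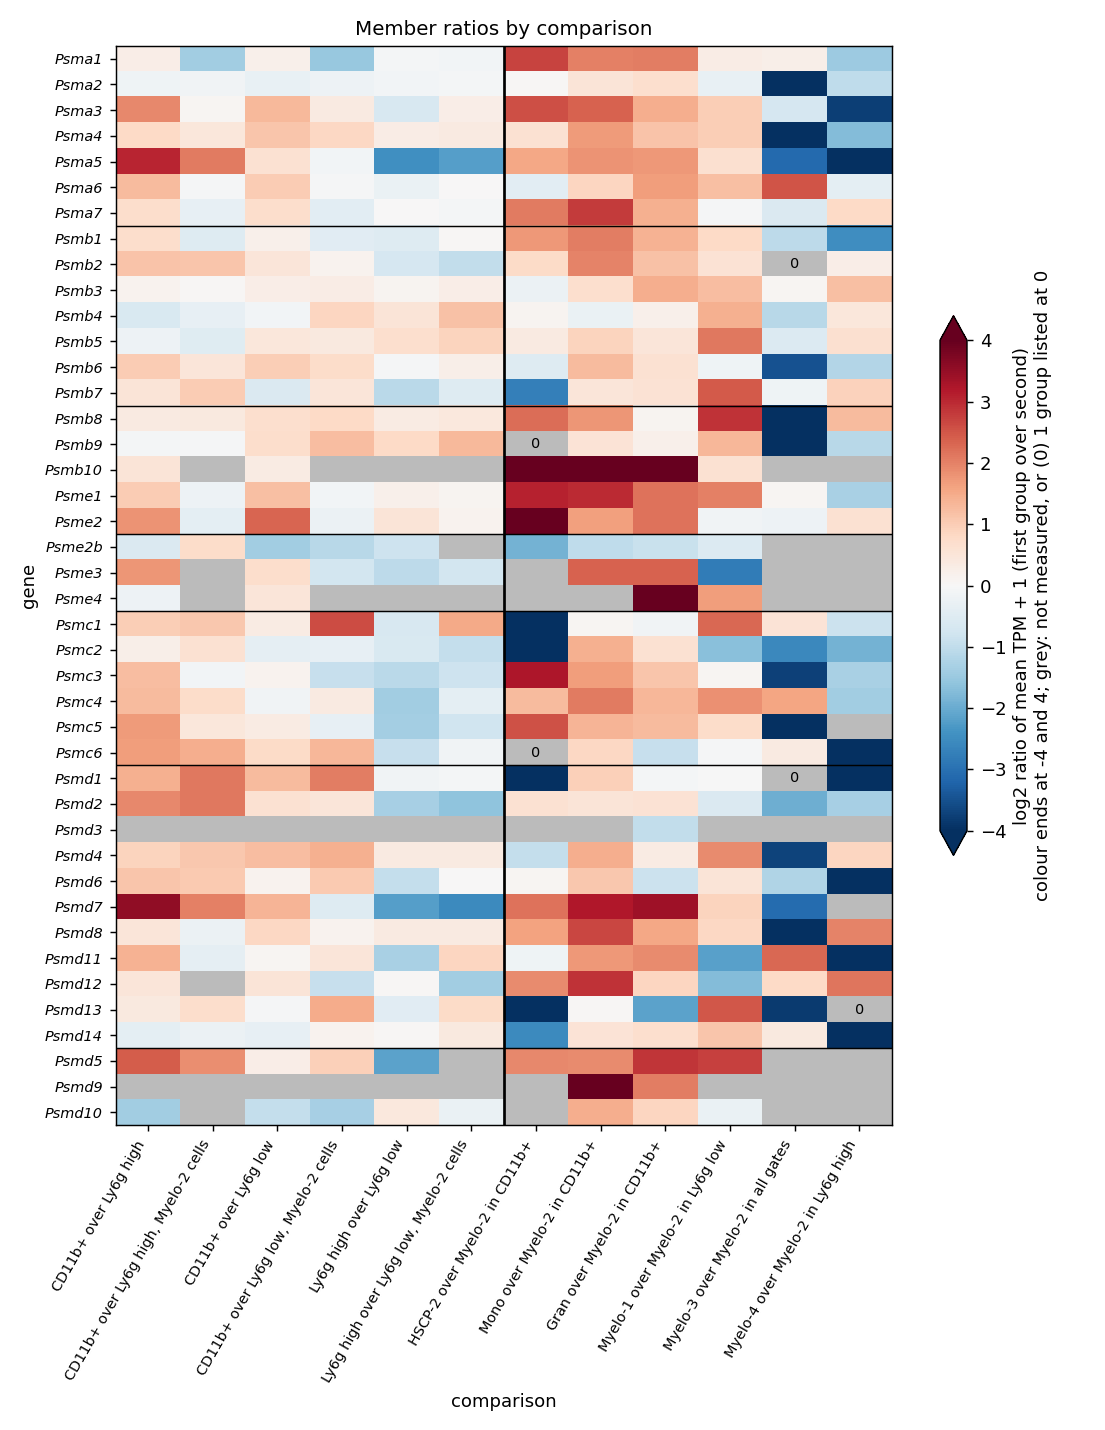
Log2 ratio of mean TPM + 1 for each member (rows, by complex: alpha, beta, immunoproteasome, other activators, ATPases, other regulatory particle genes, assembly chaperones) in 12 comparisons (columns), red for higher in the first group and blue for lower. Grey marks genes not measured, with 0 where 1 group was listed at 0; the colour ends at -4 and 4, and Psma8, Psmb11 and Psmc3ip are left out. Myelo-3 and Myelo-4 have mostly blue columns, Mono and Gran mostly red ones.

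Class means spread over a wider range than gate means. The core sum averaged 5590 TPM in HSCP-2, 7691 in Mono, 6733 in Gran-1, 5486 in Gran-2, 4083 in Myelo-1, 2393 in Myelo-3, 2719 in Myelo-4 and 2422 in Myelo-2 cells. The regulatory particle averaged 2131, 3877, 1811, 3009, 1524, 1061, 584 and 1137 TPM in the same order of classes. Of the classes with several cells, Mono was the highest in both. Its 5 cells had 5614, 7303, 7832, 8222 and 9484 TPM of the core, all above the highest Myelo-2 cell (5129 TPM). The immunoproteasome sums had another order, with 5188 TPM in HSCP-2 (2698 without CD11b+ cell 21), 1696 in Mono, 1594 in Gran-1, 1040 in Gran-2, 1142 in Myelo-1, 263 in Myelo-3, 460 in Myelo-4 and 425 in Myelo-2. The single Eryth, MDP and Multi-Lin cells had 7450, 4896 and 5986 TPM of the core, 2818, 3953 and 4375 TPM of the regulatory particle and 755, 265 and 2326 TPM of the immunoproteasome.

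**Figure D4:**
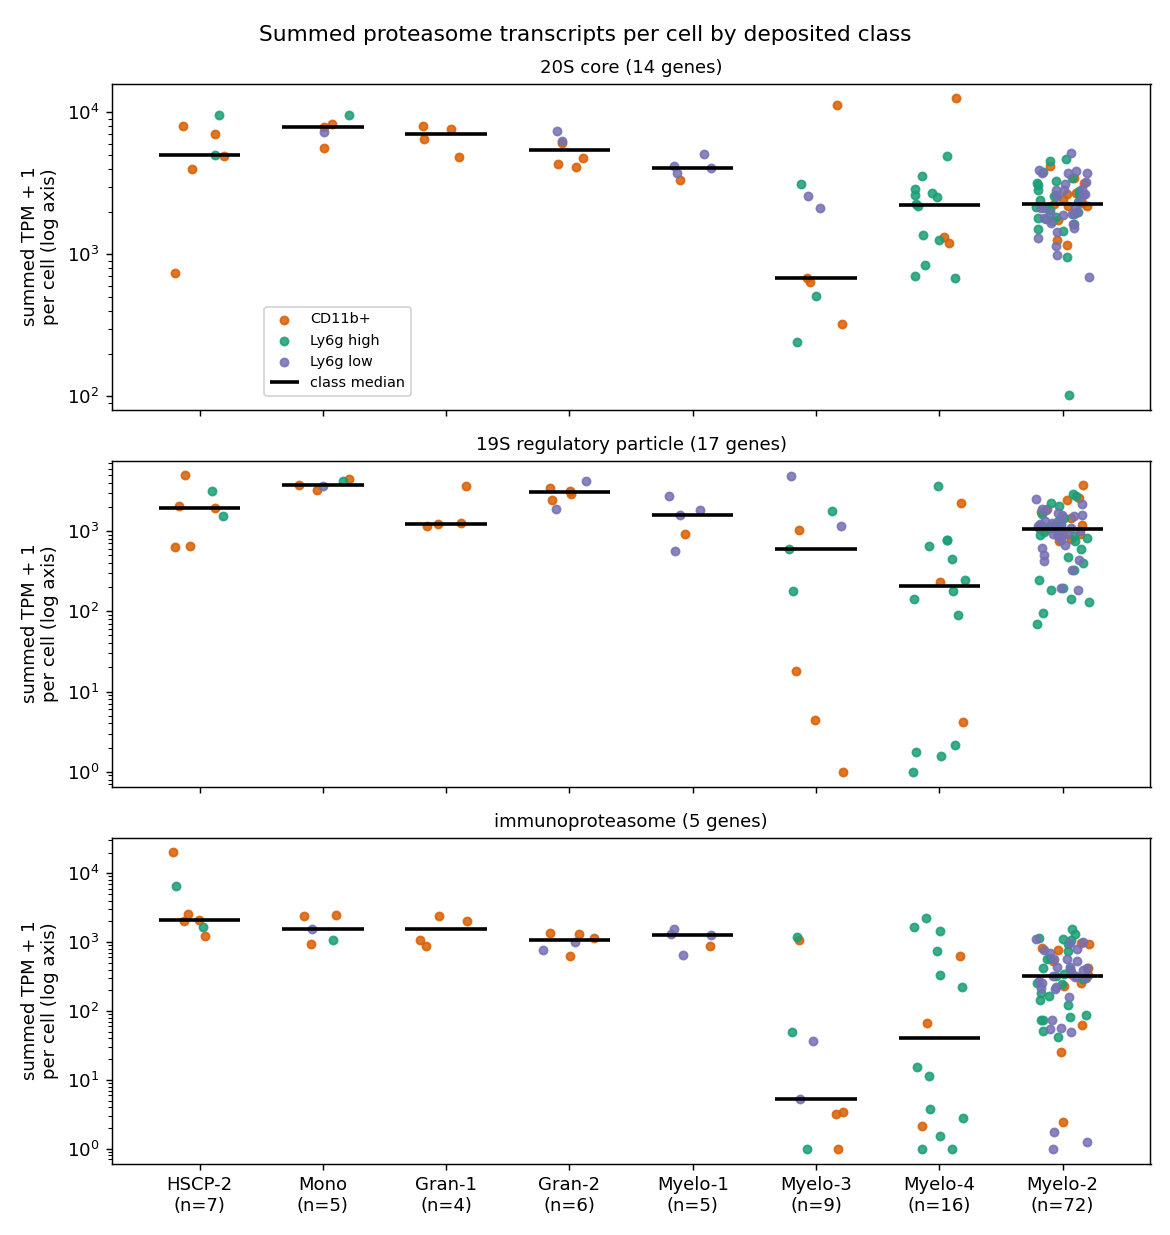
Summed TPM + 1 per cell (log axis) of the 3 gene groups by deposited class, with points coloured by gate and black lines at class medians. HSCP-2, Mono, Gran-1, Gran-2 and Myelo-1 cells lie in the upper part of the immunoproteasome panel, from 639 TPM. The highest Myelo-4 and Myelo-2 cells overlap with them (2236 and 1533 TPM), and Myelo-2, Myelo-3 and Myelo-4 spread down to 0 TPM.

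The complexes were also set against each other. From class means, the immunoproteasome sum was 92.8% of the core sum in HSCP-2 (42.2% without cell 21), 22% in Mono, 23.7% in Gran-1, 19% in Gran-2, 28% in Myelo-1, 11% in Myelo-3, 16.9% in Myelo-4 and 17.5% in Myelo-2. Among these classes HSCP-2 had the highest value also without cell 21. A second extreme cell, Ly6g high cell 85 at 132%, was still in that value, which was not computed without it. The 4 other CD11b+ HSCP-2 cells gave 33.1%, and the single Multi-Lin cell 38.9%. The medians of the ratio over single cells were 36.9% in HSCP-2, 21.3% in Mono, 22.5% in Gran-1, 18.4% in Gran-2, 26.7% in Myelo-1, 0.757% in Myelo-3, 2.47% in Myelo-4 and 12.9% in Myelo-2, so the typical Myelo-3 and Myelo-4 cell lay far below its class value. From class means, the regulatory particle made up 38.1%, 50.4%, 26.9%, 54.9%, 37.3%, 44.3%, 21.5% and 46.9% of the core in the same order, lowest in Myelo-4 and Gran-1, which also had the lowest cell medians (7.99% and 21.6%). In Gran-1, 3 of 4 cells had between 1163 and 1248 TPM of the regulatory particle and the fourth had 3598.

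Within the CD11b+ gate the 5 HSCP-2 cells were set against the 14 Myelo-2 cells. Their immunoproteasome sums were 20131, 2001, 2597, 1242 and 2079 TPM, against 1.43, 335 and 962 TPM in the lowest, median and highest Myelo-2 cells, with no overlap. The log2 ratio was 3.71, and 2.21 without cell 21. After rescaling to TPM outside the granule genes the ratio was 2.68 for the immunoproteasome, but -0.072 for the core, against 1.01 before, and -0.69 for the regulatory particle, against 0.40. Of 38 measured members, 17 were at least 2-fold higher (51.1% of all genes) and 9 lower (28.3%), and their median of 0.60 lay below the 1.06 of all measured genes. Of the 5 immunoproteasome genes, 4 were higher and 1 lower. The granule genes took a median of 0.505% of the TPM in HSCP-2 cells of all gates, against 56.6% in Myelo-2. Of 7 progenitor genes, 5 were detected in the CD11b+ HSCP-2 cells, summing to 486 to 9875 TPM per cell, and 2 in the CD11b+ Myelo-2 cells, summing to 0 to 139 TPM. The highest of these sums was that of cell 21, nearly all of it Myb (9788 TPM), and the HSCP-2 median was 978 TPM. Of 10 monocyte genes, 4 were detected in each of these groups, summing to 0 to 109 TPM in HSCP-2 and 287 to 2176 TPM in Myelo-2, and of 6 B cell genes 0 were detected in either. Of 8 dendritic genes, 2 were detected in HSCP-2 (0 to 529 TPM) and 0 in Myelo-2. Of 8 erythroid genes, 1 was detected in HSCP-2 (0 to 259 TPM) and 2 in Myelo-2 (0 to 233 TPM). The part of these genes and of the granule share in the result was not tested beyond the values given.

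Psme1, the 11S alpha subunit, stood at 0, 951, 2173, 1242 and 920 TPM in the 5 HSCP-2 cells. The lowest, median and highest CD11b+ Myelo-2 cells had 0, 21.3 and 817 TPM. In 4 of 5 HSCP-2 cells it was above the highest Myelo-2 cell. Psmb8, the immune form of Psmb5, had 579, 788, 200, 0 and 712 TPM in the same cells and a mean of 456 TPM, against 96.5 TPM in Myelo-2. Psme2 averaged 4001 TPM, but 113 TPM without cell 21, against 117 TPM in Myelo-2, or 51.9 TPM without the highest Myelo-2 cell. Psmb10, the immune form of Psmb7, averaged 95.9 TPM, of which 81.8% came from 1 cell, against 0.302 TPM in CD11b+ Myelo-2. Psma8, a subunit known from testis, was detected in 2 of 5 HSCP-2 cells (mean 24.96 TPM) and listed at 0 in Myelo-2. Psmb9, the immune form of Psmb6, was listed at 0 TPM in all 5 CD11b+ HSCP-2 cells, against a mean of 89.9 TPM in Myelo-2, while the 2 Ly6g high HSCP-2 cells had 596 and 851 TPM. The ATPase Psmc6 was also listed at 0 in these 5 cells, against 179 TPM in Myelo-2, and Psmd1 averaged 0.52 against 111 TPM. Without their highest Myelo-2 cell those means were 56.2 TPM for Psmb9, 109.8 for Psmc6 and 72.9 for Psmd1.

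Mono and Gran cells of the CD11b+ gate were set against its Myelo-2 cells in the same way. In Mono, 27 of 41 measured members were at least 2-fold higher than in Myelo-2 (57.1% of all genes) and 1 lower (14.9%), with a median of 1.60 against 1.39 for all genes. In Gran-1 and Gran-2 together (n = 8), 22 of 43 were higher (55.4% of all) and 1 lower (11.8%), with a median of 1.11 against 1.26. These shares were near those of all genes. The core sum had log2 ratios of 1.56 for Mono and 1.24 for Gran, and 0.57 and 0.36 after rescaling. The immunoproteasome had 2.19 and 1.66, and 1.19 and 0.76 after rescaling. The Mono sums were 952, 2390 and 2509 TPM and the Gran sums ran from 639 through 1233.5 to 2421, against up to 962 TPM in Myelo-2.

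Psmb10 had the highest ratio in both pairs, at 65.2, 27.2 and 269.96 TPM in the 3 Mono cells (mean 121) and a mean of 50.6 TPM in Gran, against 0.302 TPM in CD11b+ Myelo-2. Ly6g low Myelo-2 cells averaged more, at 19.3 TPM, but nearly all of that came from cell 18 (403 TPM) and cell 20 (187 TPM). Psme1 stood at 481, 1018 and 1498 TPM in the 3 Mono cells and averaged 566 TPM in Gran, against 124 TPM in Myelo-2, and Psme2 averaged 368 TPM in Mono and 530 in Gran against 117. Psmb8 averaged 330.5 TPM in Mono and 104 in Gran, against 96.5 in Myelo-2, and Psmb9 132 and 103 against 89.9. The activator subunits thus differed more than these catalytic subunits in Gran. Psmd7 averaged 246 TPM in Mono and 283 in Gran, against 26.1 in Myelo-2, and Psmd9 averaged 58 TPM in Mono against 1.73. Psme4, an activator for histone degradation, averaged 29.3 TPM in Gran and 0.0293 in Myelo-2. The lowest ratios were those of Psmd13 (5.74 TPM in Gran against 28.7), Psmd3 (12.7 against 26.1) and Psmc6 (94.2 against 179). In Mono they were Psmb4 (77.3 against 92.7), Psmd13 (29.7 against 28.7) and Psmc1 (138 against 132), all near 0 on the log2 scale. Psmd3 was detected in only 14.3% of the CD11b+ Myelo-2 cells, and its mean there was 2.62 TPM without 1 cell, which turns its direction. Without the highest cell of each group Psmd13 stood at 0.919 TPM in Gran against 14.95 in Myelo-2, Psmc6 at 58.8 against 109.8, and Psme4 at 17.4 TPM in Gran. Much of the Mono means of Psmb10 (46.2 TPM without 1 cell), Psmd9 (25.9), Psmd13 (4.95) and Psmc1 (63) came from 1 cell as well. Psmb10 and Psmd9 stayed above their Myelo-2 means of 0.302 and 1.73 TPM without it.

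In the Ly6g low gate the 4 Myelo-1 cells were set against 31 Myelo-2 cells. Of 41 measured members, 16 were at least 2-fold higher (38.7% of all genes) and 4 lower (17.7%), with a median of 0.79 against 0.58 for all genes. The immunoproteasome summed to 656.5, 1315, 1573 and 1280 TPM in Myelo-1, against 0, 318 and 1100 TPM in the lowest, median and highest Myelo-2 cells. Its log2 ratio was 1.65, and 1.05 after rescaling, when the core gave 0.81 and 0.28. Apart from Psmc3ip, which is not a subunit (log2 ratio 3.91), Psmb8 had the highest member ratio (2.89). It stood at 368, 100.2, 404 and 793 TPM in the 4 Myelo-1 cells. The Myelo-2 mean was 55.1 TPM, and 51.6% of those cells listed it. Psmd5 (89.3 against 12.5 TPM) and Psmd13 (58.8 against 9.72) followed, but without the highest Myelo-1 cell Psmd5 was at 6.88 TPM and Psmd13 at 25.5. The standard subunits Psmb5 (386 against 88.4) and Psmb7 (387 against 70.2) and the activator gene Psme1 (540 against 133) were at least 2-fold higher too, while Psmb6 (120 against 136) and Psme2 (124 against 138) were not. The lowest were Psme3 (2.12 against 20.5), Psmd11 (7.84 against 39.2) and Psmd12 (11.5 against 40.8), which without 1 Myelo-1 cell stood at 0.887, 3.33 and 0.757 TPM.

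Myelo-4 and Myelo-3 were the classes with the fewest genes, at medians of 1409 and 1282 per cell against 2239.5 in Myelo-2. In the Ly6g high gate, Myelo-4 (n = 13) had a core sum of 2191 TPM against 2393 in Myelo-2, but a regulatory particle of 531 against 962 TPM, with medians of 178 and 864. Of 32 measured members, 4 were at least 2-fold higher (13.7% of all genes) and 19 lower (45.3%), and the median of -1.23 was below the -0.75 of all genes. Psmd14 was listed in 0 of 13 Myelo-4 cells, at a mean of 0.0592 TPM, against 234 TPM and 59.3% of cells in Myelo-2. Psmd6 (0.218 against 94.5 TPM) and Psmd11 (0.0715 against 71.7) were low as well. Psmd12 (68.6 against 14.9), Psmd8 (263 against 65.3) and Psmb8 (179 against 73.5) had the highest ratios, and without their highest Myelo-4 cell Psmd8 stood at 16.8 TPM, below Myelo-2, Psmb8 at 97.7 TPM and Psmd12 at 35.5 TPM. With so few genes detected per cell, missing transcripts and true absence cannot be told apart.

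Over all gates, Myelo-3 (n = 9) had 3 of 34 measured members at least 2-fold higher than Myelo-2 (17.9% of all genes) and 19 lower (52.8%). Its median member ratio was -1.15, near the -1.25 of all genes. The highest were Psma6 (1341 against 236 TPM), Psmd11 (272 against 54.6) and Psmc4 (179 against 59.5), but without 1 cell they stood at 95.4, 0.211 and 0.0625 TPM, below Myelo-2. The core subunits Psmb2 (0 against 173 TPM), Psma2 (1.15 against 323) and Psma4 (0.329 against 127) were the lowest. The core sum was 11312 TPM in 1 Myelo-3 cell and at most 3139 TPM in the other 8.

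The balance of immune to standard catalytic subunits was taken as the share of Psmb8, Psmb9 and Psmb10 in the TPM of all 6 catalytic genes. It was 32.9% in CD11b+, 36.7% in Ly6g high and 30.2% in Ly6g low cells, and 29.7%, 32.1% and 27.6% in their Myelo-2 cells. By class it was 59.4% in HSCP-2, 40.2% in Mono, 19.1% in Gran-1, 36.1% in Gran-2, 45.2% in Myelo-1, 0.22% in Myelo-3, 21.9% in Myelo-4 and 29.95% in Myelo-2. Within CD11b+ it was 63.1% in HSCP-2 against 29.7% in Myelo-2, a gap of 33.3 percentage points, and 27.7 points without cell 21. HSCP-2 and Myelo-3 lay at the ends. The gates were close only in these pooled values, since the medians over cells were 34.1% in CD11b+, 4.67% in Ly6g high and 24.4% in Ly6g low. In single cells the share ran from 0 to 100%: among 67 Myelo-2 cells with any of these transcripts, 22 were under 1% and 4 over 99%. Such ends can rest on few listed genes, as CD11b+ cell 31 reached 100% on 4.84 TPM. The Myelo-3 share rested on an immune mean of 0.342 TPM against 157 TPM, at a median of 1282 genes per cell. Missed transcripts and true shares cannot be told apart in such cells.

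**Figure D5:**
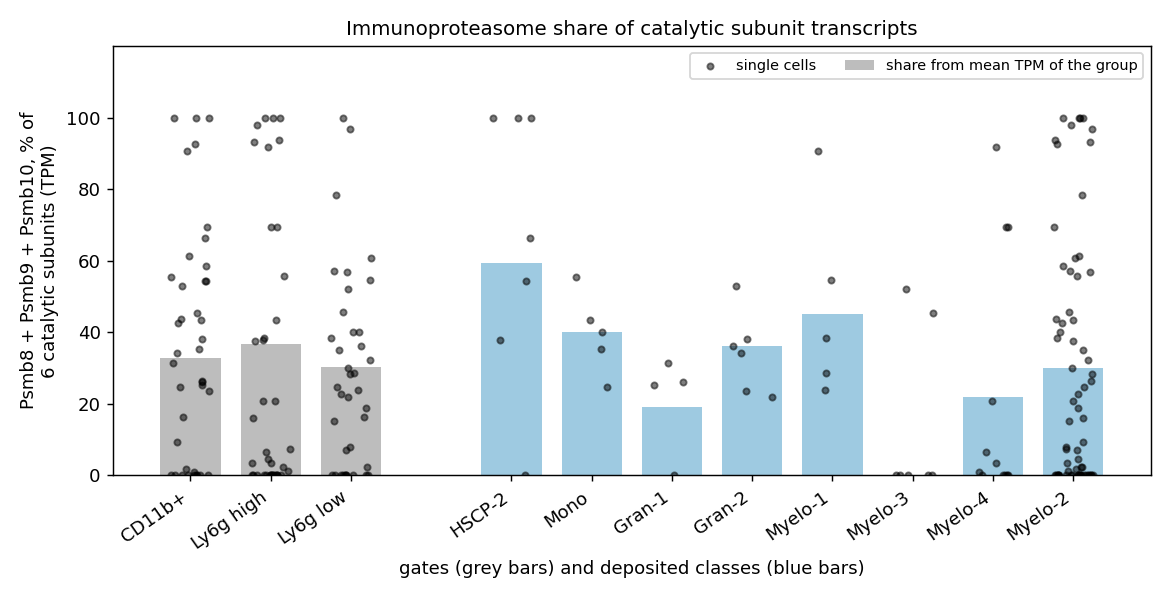
Share (y axis, %) of Psmb8, Psmb9 and Psmb10 in the TPM of the 6 catalytic subunit genes, for gates (grey bars) and deposited classes (blue bars), with single cells as points. Bars give the share from group means: 59.4% in HSCP-2 and 0.22% in Myelo-3 are the extremes, and the gates lie between 30.2% and 36.7%.

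Each immune subunit was listed both with and without the subunit it replaces. Detection ran with the genes detected per cell, so a missed transcript and true absence cannot be told apart here. The counts are therefore no measure of exchange or of shared control. Psmb8 and Psmb5 were detected together in 44 of 127 cells, Psmb8 alone in 18, Psmb5 alone in 27 and neither in 38. For Psmb9 and Psmb6 the counts were 36, 14, 40 and 37, and for Psmb10 and Psmb7 they were 17, 12, 38 and 60. The activator partners Psme1 and Psme2 were together in 58 cells, alone in 31 and 21, and both missing in 17. In the 5 Mono cells all of Psmb5 to Psmb10, Psme1 and Psme2 were detected in each cell. Psmb9 and Tap1, whose start windows overlap, were detected together in 12 cells, Psmb9 alone in 38 and Tap1 alone in 13.

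Psmb5, the chymotrypsin-like subunit, averaged 180 TPM in CD11b+, 209 in Ly6g high and 132 in Ly6g low cells, Psmb6, the caspase-like subunit, 307, 150 and 154 TPM, and Psmb7, the trypsin-like subunit, 84.3, 58.8 and 126 TPM. Without 1 cell Psmb5 stood at 116 TPM in CD11b+, below the mean of all Ly6g low cells, and Psmb7 at 34.4 TPM in Ly6g high. With the highest Ly6g low cell left out as well, Psmb5 stood at 108.8 TPM there, below CD11b+. Their immune counterparts Psmb8, Psmb9 and Psmb10 averaged 154, 120 and 95.4 TPM, then 93.4, 99.5 and 56.5 TPM, then 33, 22.6 and 26.1 TPM in CD11b+, Ly6g high and Ly6g low cells. Psme1 averaged 406, 201 and 174 TPM, and Psme3, the nuclear activator of the same family, 27, 7.27 and 16.3 TPM. Without 1 cell Psmb10 stood at 8.76 TPM in Ly6g high and 16.7 in Ly6g low, and Psme3 at 2.93 and 10.3. By class, Psmb8 averaged 452 TPM in HSCP-2, 308 in Mono, 69 in Gran-1, 117 in Gran-2, 333 in Myelo-1, 0.244 in Myelo-3, 145 in Myelo-4 and 70.1 in Myelo-2. Psme3 averaged 0.694 TPM in HSCP-2, 43.8 in Mono, 106 in Gran-1 and 15.5 in Myelo-2, but 7.68 TPM in Mono and 24.4 in Gran-1 without the highest cell of each.

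Other genes of the pathway were read from 4 lists. Of the assembly and accessory factors, 3 of 9 measured genes were at least 2-fold higher in CD11b+ than in Ly6g low (30.3% of all genes). In that pair 0 were lower (7.83% of all). Those higher were the deubiquitinase Usp14 (54.3 against 5.37 TPM), the chaperone Psmg4 (72.1 against 17.2) and the maturation factor Pomp (378 against 173). In Mono 10 of 12 were higher (57.1% of all genes) and 1 lower (14.9%) than in CD11b+ Myelo-2. In Gran it was 9 of 11 higher (55.4% of all) and 0 lower (11.8%). The chaperone Psmg1 stood at 149 TPM in Mono and 39 in Gran against 4.37 (41.8 and 9.55 without the highest Mono and Gran cell). In Myelo-4 it was 0 of 4 higher (13.7% of all genes) and 2 lower (45.3%). The 2 lower were Uchl5 (2.05 against 80.6 TPM) and Adrm1 (14.5 against 90.3), which dock on the regulatory particle. Of the ubiquitin genes and unfoldase cofactors, 7 of 9 were higher in HSCP-2 than in CD11b+ Myelo-2 (51.1% of all genes) and 1 lower (28.3%). Those higher included the ubiquitin gene Ubb (14494 against 6226 TPM). Vcp, the unfoldase upstream of the proteasome, was higher in CD11b+ (104 TPM) than in Ly6g low cells (20.5), also among Myelo-2 cells (86.2 against 16.7).

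Of the transcription factors that act on proteasome genes, Nfe2l2 averaged 227 TPM in CD11b+, 104 in Ly6g high and 69.4 in Ly6g low cells. Among Myelo-2 cells its means were 104, 85.7 and 77.3 TPM. Nfe2l1 averaged 55.8 TPM in Mono against 0.286 in CD11b+ Myelo-2, but 0.19 TPM without 1 of the 3 Mono cells. Of the antigen processing and interferon genes, 2 of 10 were higher in CD11b+ than in Ly6g low (30.3% of all genes), the MHC class I gene H2-K1 (290 against 110 TPM) and the interferon receptor gene Ifngr1 (201 against 98.9). There, 1 was lower (7.83% of all genes), the interferon factor Irf1 (15.6 against 61.9), and Myelo-2 cells had 5.28 against 76.6 TPM. In HSCP-2, 4 of 7 were higher than in CD11b+ Myelo-2 (51.1% of all genes) and 0 lower (28.3%). Among those higher were H2-K1 (809 against 141), H2-D1 (875 against 261) and Ifngr1 (184 against 76). In Mono it was 6 of 11 higher (57.1% of all) and 2 lower (14.9%), and in Gran 6 of 11 higher (55.4%) and 0 lower (11.8%). The shares higher were near those of all genes. Irf1 (52.2 against 5.28 TPM) and Ifngr1 (510 against 76) were among those higher in Gran.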

How the data were processed

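Values of 23946 genes in 127 cells were deposited by the authors on the log2(TPM + 1) scale; this was read from the values, since TPM sum to 999633 to 1005380 TPM per cell. Alignment and quantification tools named in the submitters' processing notes are Bowtie2 and RSEM, with build mm9; for versions and annotation nothing is stated. The class of each cell comes from another deposited file. The number of columns without a sample was 0. TPM keep no read depth, so genes detected per cell stand for it, and means over few cells are imprecise. The log2 values were turned back to TPM, averaged over cells, and compared as log2 ratios after adding 1 TPM. Genes were measured at 1 TPM or more in 25% of cells of either group, and called at 2-fold. Each gate is 1 sample, so there is no test or p-value. No columns were identical (highest correlation 0.884), and the gates shared 18 or 19 capture positions pairwise. All cells were used, with no doublet caller and no clustering. Members and gene lists were chosen with earlier results of these data known. For gates the 5 highest and 5 lowest measured members with a mean of 10 TPM or more, for classes 3 and 3, and the catalytic and 11S genes were named; from the other lists at most 4 each way were named, and genes named beyond that were chosen after their values were seen. Psmc3ip, which is not a subunit, was kept in the counts but left out of the members named by rank. Only the log2 ratio step was checked, on resampled Ly6g low cells with planted changes, which tests its arithmetic and no other step. Python 3.11.15, NumPy 2.4.6, pandas 2.3.3, SciPy 1.17.1 and matplotlib 3.10.9 were used. Other settings tried were 2 pseudocounts, 2 filters, a trimmed mean, a mean of log2 values, rescaling without granule genes, cells with 1500 to 3000 genes, Myelo-2 cells only and leaving out each cell. Coordinates of windows are of GRCm38.p6, not of mm9. Some genes of the other lists are not reported here.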

Additional observations from a re-analysis of the deposited data

Results flagged for a closer look

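Each of 3 sums in each class of 4 to 10 cells was examined for a cell far from the rest, and 4 of 18 such groups held one. The rule's rate of about 1 in 20 holds for independent normal values. These sums were skewed and came from the same cells, so the count cannot be read against that rate. In HSCP-2 the summed immunoproteasome was 20131 TPM in CD11b+ cell 21, far above the next cell at 6616 TPM. That cell had 19552 TPM of Psme2, 734 TPM of the core and 1566 genes, against a class median of 2728 genes. In Gran-1 the summed regulatory particle was 3598 TPM in CD11b+ cell 42, above 1248 TPM in the next cell. In Myelo-3 the summed core was 11312 TPM in CD11b+ cell 35, which had 821 genes, the fewest of all cells, and nearly all of it was Psma6 (11303 TPM). In Myelo-3 the summed regulatory particle was 4801 TPM in Ly6g low cell 9, above 1766 TPM in the next cell. Why these cells stand apart was not tested.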

How the results depend on the processing

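With 1 sample per gate and no test, these values describe the cells at hand, and TPM give no depth. No paired analysis was possible because cell numbers only name cells and no result comes from a test. Sums and shares were judged against their spread over cells, which is wide (cell shares run from 0 to 100%), so a value within it is not shown to be stable. Rescaled without granule genes, the summed core turned to -0.072 in HSCP-2 and moved to 0.36 in Gran, 0.57 in Mono and 0.28 in Myelo-1, and the regulatory particle to -0.28 in Gran, -0.69 in HSCP-2 and 0.27 in Mono, each over Myelo-2. Among Myelo-2 cells the immunoproteasome of CD11b+ over Ly6g high turned to -0.14. Without 1 cell each, the immunoproteasome ran from 0.91 to 1.59 in CD11b+ over Ly6g low, from 0.52 to 1.44 over Ly6g high and from 2.21 to 3.97 in HSCP-2.

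Counts of members at least 2-fold different moved by over 1.5 times in 51 of 152 alternatives. Except for Myelo-2 cells, whose shares are given above, the share of all measured genes was not computed under these settings. The counts below therefore show how the calls move and are no result about the members. After rescaling, members higher and lower were 2 and 2 in CD11b+ over Ly6g low, 9 and 5 in CD11b+ over Ly6g high, 10 and 7 in Gran, 10 and 14 in HSCP-2, and 12 and 3 in Mono. Among Myelo-2 cells they were 3 and 4 in Ly6g high over Ly6g low, 3 were lower in CD11b+ over Ly6g low, and 11 were higher in CD11b+ over Ly6g high. In cells with 1500 to 3000 genes they were 5 and 3 in Ly6g high over Ly6g low; 15 were higher in CD11b+ over Ly6g low, 9 in CD11b+ over Ly6g high and 2 in Myelo-4, and 20 were lower in HSCP-2. With the mean of log2(TPM + 1), 24 were lower in Ly6g high over Ly6g low, 0 in CD11b+ over Ly6g high, Gran and Mono; 37 were higher in Gran and 2 in Myelo-4, with 32 and 0 in Myelo-1 and 0 and 30 in Myelo-3. With a 10% trimmed mean, 19 were lower in Ly6g high over Ly6g low, 2 in CD11b+ over Ly6g low and 0 in Mono, with 28 and 2 in Myelo-1 and 7 higher in Myelo-3. With detection in 50% of cells, 0 were lower in CD11b+ over either other gate, Gran and Mono, 4 in HSCP-2, with 1 and 7 in Myelo-4 and 1 and 8 in Myelo-3. With no filter, 2 were lower in Mono and 5 higher in Myelo-3. A pseudocount of 0.1 TPM gave 3 lower in Gran, and one of 10 TPM gave 0 lower in Mono and in CD11b+ over Ly6g low. Without CD11b+ cell 35 and Ly6g low cell 9, a choice made after seeing the data, 1 member was higher in Myelo-3; leaving out CD11b+ cell 21, chosen likewise, moved no count by that much. The restriction to 1500 to 3000 genes was not run for Gran, Mono and Myelo-1, which had 1, 0 and 0 such cells. The cause of these changes was not tested.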
